A study of Mus musculus with 2 samples.

Results

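The 9 genes followed here belong to the Notch pathway: the receptors Notch1, Notch2 and Notch3, the ligands Dll4 and Jag1, and the transcription factors Hey1, Hey2, Heyl and Hes1. They form a fixed list matched by symbol, and 9 of 9 were found among the 31053 genes of the count tables. The data were single-cell RNA counts from mouse hearts at E12.5, with 1 library per genotype. The mutant library came from Tbx18-Cre; Prmt1 fl/fl;YFP/+ hearts, and the control library from Tbx18-Cre; YFP/+ hearts. Prmt1 codes for a protein arginine methyltransferase. Both genotypes carried the Tbx18-Cre driver and a YFP allele, so the floxed Prmt1 allele was the labelled difference. The labels state neither the number of hearts in each library nor their litters or sex. With 1 library per genotype there was no replicate check and no test: a difference between genotypes and a difference between 2 libraries cannot be told apart, and every interval below is a 95% interval that covers counting error only.

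The mutant library held 48527471 deposited UMIs (unique molecular identifiers, each standing for 1 captured RNA molecule) and the control library 49323576. After minimums of 1000 UMIs and 500 genes and a mitochondrial maximum of 20%, 4640 mutant cells with a median of 4046 UMIs and 4100 control cells with a median of 5896.5 UMIs were kept, and 8 barcodes occurred in both. Cells were put into groups by summed marker genes per 10000 UMIs. Ventricular cardiomyocytes numbered 1202 in the mutant and 1536 in the control library, atrial cardiomyocytes 312 (mutant) and 435 (control), epicardial cells 437 (mutant) and 256 (control), and mesenchymal cells 1338 (mutant) and 827 (control). Endothelial cells with at least 1 UMI of Npr3, a natriuretic peptide receptor of the endocardium, are called endocardial (53 mutant, 31 control), a name that follows this single gene. Those without an Npr3 UMI are called other endothelial (217 mutant, 175 control). A shallow endocardial cell can lack an Npr3 UMI by sampling, and the 2 endothelial groups also differed in median depth: 5156 (mutant) and 4628 (control) UMIs in endocardial cells, 3103 (mutant) and 2449 (control) UMIs in the others.

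Apart from the split of endothelial cells by Npr3, the groups carried the markers of their names. Pecam1, an endothelial adhesion molecule, stood at 131 (mutant) and 106 (control) CPM (counts per 1000000 UMIs of the group) in all endothelial cells and at 0.296 (mutant) and 0.17 (control) in ventricular cells. Nfatc1, another endocardial gene, followed the Npr3 split only in the control library. It stood at 30.9 (mutant) and 68.2 (control) CPM in endocardial cells, against 37.1 (mutant) and 25.8 (control) in other endothelial cells. Myl2, the ventricular myosin light chain, stood at 7363 (mutant) and 7518 (control) CPM in ventricular cells, against 59.6 (mutant) and 24.4 (control) in atrial cells. Upk3b, an epicardial uroplakin, stood at 602 (mutant) and 839 (control) CPM in epicardial cells. The epicardial gate did not exclude mesenchymal markers. These summed to 3766 (mutant) and 4196 (control) CPM in epicardial cells, against 4656 (mutant) and 4892 (control) in mesenchymal cells. Myl7, an atrial myosin light chain, was also present in epicardial-gated cells, at 5599 (mutant) and 4913 (control) CPM. Tbx18, whose regulatory region drives the Cre, stood at 93.9 (mutant) and 122 (control) CPM in epicardial cells, 14.2 (mutant) and 14.4 (control) in mesenchymal cells and 3.74 (mutant) and 3.18 (control) in ventricular cells. Prmt1 itself was counted at 389 (mutant; 359 to 421) and 468 (control; 424 to 516) CPM in epicardial cells and at 786 (mutant) and 657 (control) in ventricular cells. The labels do not state which exons are floxed, so these counts do not check the deletion.

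Notch receptors are single-pass membrane proteins that are cut when a ligand of the Delta or Jagged families on a neighbouring cell binds them. The freed intracellular domain joins RBPJ, a DNA-binding protein, and switches on target genes, among them the Hes and Hey transcriptional repressors. In the developing heart the pathway is known for its roles in endocardium, valve formation, trabeculation, arterial endothelium and the smooth muscle of coronary vessels.

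The genes lie on 6 mouse chromosomes in build GRCm38: Notch1 on chromosome 2 (26457903 to 26516663, minus strand), Dll4 on 2 (119325784 to 119335962, plus) and Jag1 on 2 (137081456 to 137116644, minus). Notch2 lies on chromosome 3 (98013527 to 98150361, plus) and Hey1 on 3 (8663359 to 8667256, minus). Notch3 lies on chromosome 17 (32120820 to 32166852, minus), Hey2 on 10 (30832359 to 30842801, minus), Heyl on 4 (123233556 to 123249875, plus) and Hes1 on 16 (30064384 to 30067796, plus). RefSeq promoters were matched for 6 of the 9 genes (Notch1, Notch2, Notch3, Dll4, Jag1 and Hey2). They were searched on both strands for TGGGAA, the core of the RBPJ motif. Hey2 is shown because it was the only one of the 6 to hold the motif, and Jag1 because it is a ligand whose level differed between the libraries in endothelial cells. Capitals mark TGGGAA, or its reverse complement where it lies on the other strand.
Hey2 (GRCm38.p6, chr10:30842734-30843033, minus strand): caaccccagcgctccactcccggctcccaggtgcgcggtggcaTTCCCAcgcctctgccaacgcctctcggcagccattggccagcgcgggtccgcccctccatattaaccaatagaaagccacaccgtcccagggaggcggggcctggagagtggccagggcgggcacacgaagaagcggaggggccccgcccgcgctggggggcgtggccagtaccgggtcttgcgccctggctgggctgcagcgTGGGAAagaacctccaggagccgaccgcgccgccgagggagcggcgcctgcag
Jag1 (GRCm38.p6, chr2:137116471-137116770, minus strand): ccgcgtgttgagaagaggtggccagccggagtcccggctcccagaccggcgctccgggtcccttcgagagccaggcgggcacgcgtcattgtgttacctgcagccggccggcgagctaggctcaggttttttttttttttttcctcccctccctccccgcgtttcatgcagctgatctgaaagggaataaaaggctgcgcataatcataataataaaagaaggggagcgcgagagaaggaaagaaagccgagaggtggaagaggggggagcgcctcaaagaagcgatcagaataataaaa
The Hey2 window held 2 matches, whose first bases lay at -207 (on the opposite strand) and -3 (on the gene's strand) from the start of transcription. Both continued to the longer form GTGGGAA. Among 32851 mouse promoters of the same length, 25.6% held at least 1 TGGGAA and 3.79% at least 2, while 0.256% held at least 2 of GTGGGAA. A match is a run of letters and not a bound site.

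Notch1, a receptor known for its role in endocardium and arterial endothelium, had its highest levels in the endothelial groups. Endocardial cells held 77.1 (mutant; 35 UMIs) and 40.3 (control; 13 UMIs) CPM, and other endothelial cells 47.8 (mutant; 49 UMIs) and 32.2 (control; 25 UMIs). Mesenchymal cells followed with 11.5 (mutant) and 13.0 (control). Epicardial, ventricular and atrial cells held at most 2.28, so muscle was nearly free of Notch1 in both libraries. In the mutant library the steps from endocardial to other endothelial cells (1.61-fold, 1.01 to 2.54), on to mesenchymal cells (4.15-fold, 2.70 to 6.40) and on to epicardial cells were each larger than counting error. In the control library the first of these steps was not (1.25-fold, 0.588 to 2.54). In the mutant library the first step rested in part on 1 endocardial cell with 13 Notch1 UMIs. Without the cell richest in Notch1 in each group, the mutant levels were 52.4 (endocardial) and 40.1 (other endothelial) CPM. Without cells over 10000 UMIs they were 40.3 (8 UMIs) and 34.8 (25 UMIs), with overlapping intervals.

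In the comparison of the libraries over all endothelial cells together, Notch1 stood at 56.8 (mutant) and 34.6 (control) CPM, a ratio of 1.64 (1.11 to 2.48). The ratio was 1.91 (0.988 to 3.94) in endocardial cells and 1.48 (0.899 to 2.51) in other endothelial cells. Of the 35 UMIs of mutant endocardial cells, 13 came from 1 cell. Without the cell with the most Notch1 UMIs in each library, endocardial cells held 52.4 (mutant) and 35.7 (control) CPM.

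Notch2 and Notch3, receptors of mesenchymal and mural cells, had their highest levels of the 6 groups in mesenchymal cells in both libraries. For Notch2 these cells held 29.5 (mutant; 110 UMIs) and 37.4 (control; 78 UMIs) CPM, a ratio of 0.787 (0.584 to 1.07). Epicardial cells held 19.3 (mutant) and 28.5 (control), and the mesenchymal level was above the epicardial one beyond counting error in the mutant library (1.53-fold, 1.01 to 2.37) and not in the control library (1.31-fold, 0.826 to 2.15). With clusters in place of gates the epicardial levels were 9.71 (mutant) and 6.22 (control), so the direction between the libraries turned. In endothelial and muscle cells Notch2 lay between 1.72 and 8.82 CPM. It was thus low where Notch1 was high: over all endothelial cells against mesenchymal cells, the Notch2 ratio was 0.206 (mutant) and 0.0973 (control), while the Notch1 ratio was 4.93 (mutant) and 2.67 (control).

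Notch2 was also uneven within the mesenchymal group. The 35 mutant and 23 control mesenchymal cells over 10000 UMIs held Notch2 at 96.6 (mutant; 73.0 to 125) and 139 (control; 103 to 183) CPM. The cells up to 10000 UMIs held 17.1 (mutant; 12.9 to 22.4) and 15.7 (control; 10.4 to 22.9). The high level thus sat in a few deep cells of both libraries, and the intervals of the libraries overlapped in the remaining cells. This was not particular to mesenchymal Notch2. Epicardial cells over 10000 UMIs held Notch2 at 53.6 (mutant) and 45.1 (control) CPM, against 9.16 (mutant) and 21.3 (control) in the rest. Deep endothelial cells held Notch1 at 90.7 (mutant) and 49.8 (control), against 36.0 (mutant) and 21.8 (control) in the rest. Mesenchymal Hey2 was not higher in the deep cells of either library. Mural cells, gated on pericyte markers such as Rgs5 and Pdgfrb, numbered only 30 in the mutant and 40 in the control library, and held 7 (mutant) and 6 (control) Notch2 UMIs, or 124 (mutant) and 51.9 (control) CPM. Vessel wall cells, the 21 mutant and 33 control mesenchymal cells gated on Cxcl12, Eln and Fbln5, held 121 (mutant; 7 UMIs) and 67.4 (control; 8 UMIs, 6 of them in 1 cell). This was 4.10-fold (1.61 to 8.74) the level of the whole mesenchymal group in the mutant library and 1.80-fold (0.751 to 3.73) in the control library.

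Notch3, known for its role in vascular smooth muscle and pericytes, was sparse. Mesenchymal cells held 10.2 (mutant; 38 UMIs) and 8.64 (control; 18 UMIs) CPM, epicardial cells 5.79 (mutant; 9 UMIs) and 3.43 (control; 3 UMIs), and ventricular cells 1.68 (mutant) and 1.48 (control). No neighbouring pair of groups in its order differed beyond counting error in either library. Mural cells held 1 (mutant) and 3 (control) Notch3 UMIs, or 17.7 (mutant) and 25.9 (control) CPM, too few to set a level.

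**Figure D1:**
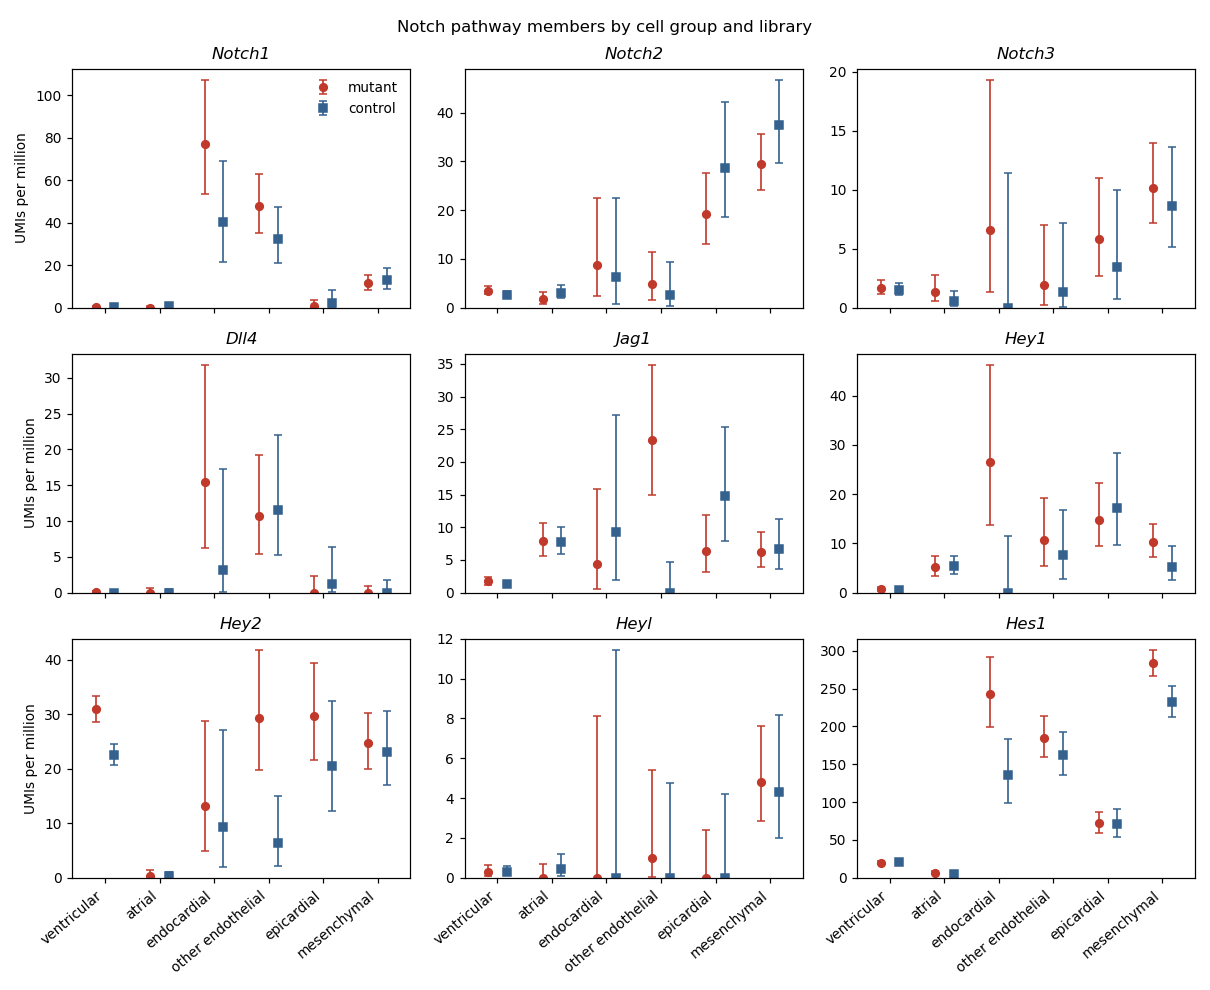
Level of each gene in CPM (linear axes from 0, each panel with its own scale) in 6 cell groups, with the mutant library as red circles left of the control library as blue squares and bars as exact Poisson 95% intervals of the summed counts. Notch1 and Dll4 are highest in the endothelial groups, Notch2, Notch3 and Heyl have their highest points of the 6 groups in mesenchymal cells, and Hey2 is near 0 in atrial cells (0.383 mutant, 0.276 control) and at 30.9 (mutant) and 22.6 (control) in ventricular cells.

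Dll4, a Delta ligand of arterial endothelium and endocardium, was seen almost only in endothelial cells. All endothelial cells together held 18 (mutant) and 10 (control) UMIs, or 12.2 (7.21 to 19.2) and 9.10 (4.37 to 16.7) CPM. Endocardial cells held 7 (mutant) and 1 (control) of these UMIs. Outside the endothelium, the mutant library had 1 Dll4 UMI in ventricular cells and the control library 1 in epicardial cells. Atrial and mesenchymal cells held 0 in both libraries. The intervals of the libraries overlapped in every group.

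Jag1, a Jagged ligand known from endocardium, outflow tract and smooth muscle, had a broader pattern. Atrial cells held 7.85 (mutant; 41 UMIs) and 7.74 (control; 56 UMIs) CPM, against 1.72 (mutant; 35 UMIs) and 1.27 (control; 30 UMIs) in ventricular cells. The ventricular level was thus 0.220 (0.136 to 0.353) of the atrial one in the mutant and 0.165 (0.102 to 0.261) in the control library, a chamber difference of like size in both. Mesenchymal cells held 6.16 (mutant) and 6.72 (control), and epicardial cells 6.43 (mutant; 10 UMIs) and 14.8 (control; 13 UMIs). The epicardial ratio was 0.433 (0.17 to 1.07). Its direction turned when clusters took the place of gates, when every cell had equal weight and when cells were thinned.

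The libraries differed most in the other endothelial cells, where Jag1 had 24 UMIs in the mutant and 0 in the control library, or 23.4 (15 to 34.8) CPM (mutant) and 0 CPM (control). The mutant level was 6.06-fold a chosen floor of 3 UMIs over the control group (3.87 CPM). The lower end of the exact interval of the ratio was 4.56. With gate thresholds doubled the levels were 4.72 (mutant) and 0 (control) CPM, and with clusters in place of gates 20.25 (mutant) and 8.45 (control). The UMIs were not spread over the cells. Of the 217 mutant cells, 7 had a Jag1 UMI, and the top 2 cells alone, with 26941 and 20005 UMIs in all, held 12 and 7 of them. Those same cells held 6 and 8 of the 30 Hey2 UMIs, 128 and 49 UMIs of Wnt4 and 26 and 26 of Wnt9b, which code for secreted Wnt ligands, and 0 of Hes1. They held 0 and 1 UMIs of the muscle gene Tnnt2. In the control library, a pair of deep endothelial cells with 63005 and 76633 UMIs held 78 and 36 Wnt4 UMIs, 2 and 0 of Wnt9b and 0 and 2 of Jag1. The control cell with 76633 UMIs had 1 Npr3 UMI and so belongs to the endocardial group, unlike the top 2 mutant cells. Without every endothelial cell over 10000 UMIs, all endothelial cells held Jag1 at 4.37 (mutant; 4 UMIs) and 1.68 (control; 1 UMI) CPM, with overlapping intervals.

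Hey1, a repressor of the Hey family and a Notch target in endothelium and atrium, was detected at low levels in each group. Endocardial cells held 12 (mutant) and 0 (control) UMIs, or 26.5 (13.7 to 46.2) CPM (mutant) and 0 CPM (control). The mutant level was 2.84-fold a chosen floor of 3 UMIs over the control group (9.30 CPM). The lower end of the exact interval of the ratio was 1.98. Other endothelial cells held 10.7 (mutant; 11 UMIs) and 7.73 (control; 6 UMIs). Over all endothelial cells the levels were 15.6 (mutant) and 5.46 (control), a ratio of 2.85 (1.13 to 8.55). Cells over 10000 UMIs held 16 of the 23 mutant and 4 of the 6 control UMIs, and without them the levels were 7.64 (mutant) and 3.36 (control) CPM, with overlapping intervals.

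In muscle Hey1 had the chamber pattern of Jag1. Atrial cells held 5.17 (mutant; 27 UMIs) and 5.39 (control; 39 UMIs) CPM, against 0.690 (mutant; 14 UMIs) and 0.594 (control; 14 UMIs) in ventricular cells. The ventricular level was 0.133 (0.0646 to 0.263) of the atrial one in the mutant library and 0.110 (0.0553 to 0.207) in the control library. Among mesenchymal cells, Hey1 sat mainly in those with a UMI of Tcf21, a transcription factor of epicardium-derived fibroblasts: 12.9 (mutant; 36 UMIs) and 7.60 (control; 10 UMIs) CPM, against 2.11 (mutant; 2 UMIs) and 1.30 (control; 1 UMI) in those without. The excess was beyond counting error in the mutant library (6.11-fold, 1.57 to 52.4) and not in the control library (5.85-fold, 0.832 to 254).

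Hey2, the Hey gene of compact ventricular muscle, had the opposite chamber pattern. Ventricular cells held 30.9 (mutant; 627 UMIs) and 22.6 (control; 533 UMIs) CPM, and atrial cells 0.383 (mutant) and 0.276 (control), with 2 UMIs in each library. The ventricular level was 80.7-fold (22.2 to 667) the atrial one in the mutant library and 81.8-fold (22.5 to 677) in the control library. Depth did not differ much between the chambers, with median UMIs of 11764 (mutant) and 10438.5 (control) in ventricular cells and of 11008.5 (mutant) and 11820 (control) in atrial cells. With each cell thinned to 1000 UMIs, 2.33% of mutant and 2.28% of control ventricular cells had a Hey2 UMI, against 0% of atrial cells in both libraries, with exact binomial upper ends of 1.18% (mutant) and 0.844% (control). At full depth the shares were 30.4% (mutant) and 22.6% (control) of ventricular cells, against 0.641% (mutant) and 0.460% (control) of atrial cells.

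Within the ventricle, Hey2 did not separate cells by Nppa, the natriuretic peptide of trabecular muscle. Nppa-high cells held 31.6 (mutant) and 23.8 (control) CPM, and Nppa-low cells 30.1 (mutant) and 21.7 (control). The ratio of the subgroups was 1.05 (0.859 to 1.28) in the mutant and 1.1 (0.878 to 1.37) in the control library. The mutant over control ratio in all ventricular cells was 1.37 (1.22 to 1.54), and a difference in the same direction stood in both subgroups. It was not seen once cells were thinned to 1000 UMIs, at 24.1 (mutant) and 26.0 (control) CPM. Since thinned counts were few, this gives the size of the difference only loosely.

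Hey2 was not confined to muscle. Epicardial cells held 29.6 (mutant; 46 UMIs) and 20.6 (control; 18 UMIs) CPM, and mesenchymal cells 24.6 (mutant; 92 UMIs) and 23.0 (control; 48 UMIs). In neither library did the ventricular, epicardial and mesenchymal levels differ between neighbours in their order beyond counting error. The other endothelial cells held 29.3 (mutant; 30 UMIs) and 6.44 (control; 5 UMIs), a ratio of 4.54 (1.74 to 15). As for Jag1, deep cells carried this: cells over 10000 UMIs held 24 of the 30 mutant UMIs, and without them the levels were 8.36 (mutant) and 6.07 (control) CPM. With gate thresholds doubled they were 12.6 (mutant) and 8.03 (control), and with clusters in place of gates 25.5 (mutant) and 15 (control).

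Heyl, the Hey gene of vascular smooth muscle, was the sparsest target. Mesenchymal cells held 4.82 (mutant; 18 UMIs) and 4.32 (control; 9 UMIs) CPM. Elsewhere no group held more than 7 UMIs in either library, and endocardial and epicardial cells held 0 in both. The libraries did not differ beyond counting error in any group.

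**Figure D2:**
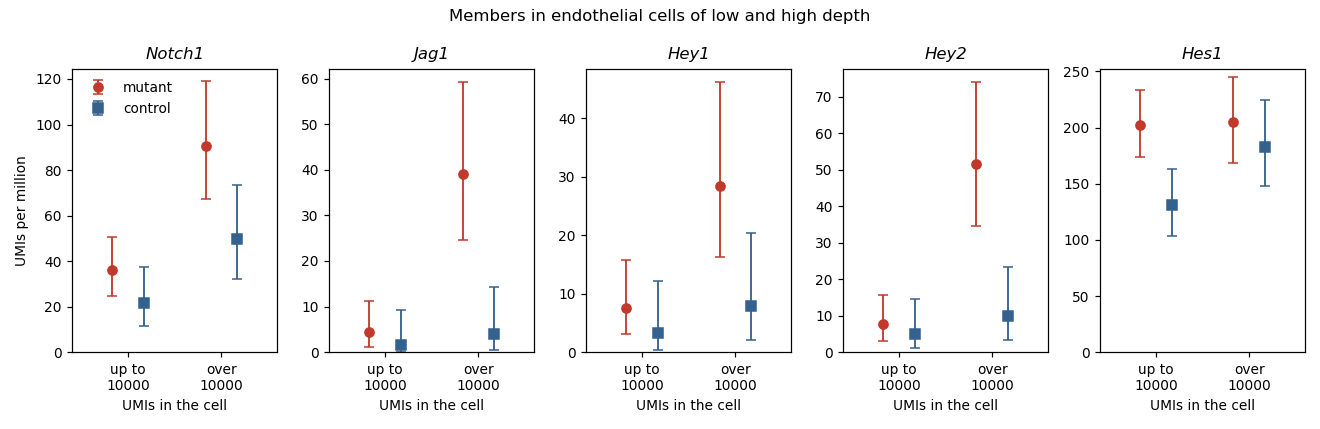
Level of 5 genes in CPM (linear axes from 0) in endothelial cells with up to 10000 UMIs and over 10000 UMIs, with the mutant library (248 and 22 cells) as red circles left of the control library (189 and 17 cells) as blue squares and bars as exact Poisson 95% intervals. For Jag1 and Hey2 the mutant library stands above the control library in the deep cells, at 39.1 (mutant) against 3.98 (control) and 51.6 (mutant) against 9.95 (control) CPM, while the intervals overlap in the shallower cells.

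Hes1, a repressor that answers to Notch and to other signals, was detected in every group and had an order with mostly clear steps. Mesenchymal cells held 284 (mutant; 1059 UMIs) and 232 (control; 484 UMIs) CPM, endocardial cells 242 (mutant; 110 UMIs) and 136 (control; 44 UMIs), and other endothelial cells 185 (mutant) and 162 (control). Epicardial cells held 72.0 (mutant) and 70.8 (control), ventricular cells 19.7 (mutant) and 20.1 (control), and atrial cells 6.70 (mutant) and 5.11 (control). Each step from endothelium down to atrium was beyond counting error in both libraries, for example 2.94-fold (mutant; 2.08 to 4.28) and 3.94-fold (control; 2.82 to 5.67) from atrial to ventricular cells. At the top of the order, mesenchymal and endocardial cells did not differ beyond counting error in the mutant library, nor did other endothelial and endocardial cells in the control library. With cells thinned to 1000 UMIs, 21.6% of mutant and 20.6% of control mesenchymal cells had a Hes1 UMI, against 1.5% of mutant and 1.69% of control ventricular cells. At full depth these shares were 38.6% (mutant) and 34.1% (control) of mesenchymal cells, against 23.6% (mutant) and 19.9% (control) of ventricular cells, whose median depth was several times higher, at 11764 (mutant) and 10438.5 (control) UMIs against 2194.5 (mutant) and 1824 (control).

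Within the ventricle Hes1 was lower in the Nppa-high cells in both libraries. Nppa-high cells held 15.4 (mutant) and 14.3 (control) CPM, against 20.7 (mutant) and 21.2 (control) in Nppa-low cells. The ratio of Nppa-high to Nppa-low cells was 0.744 (0.564 to 0.973) in the mutant and 0.675 (0.513 to 0.880) in the control library. Tcf21 did not separate mesenchymal cells by Hes1, with ratios of 1.05 (mutant) and 0.996 (control).

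Between the libraries, Hes1 had a ratio of 1.78 (1.24 to 2.58) in endocardial cells and of 1.22 (1.1 to 1.36) in mesenchymal cells. It had a ratio of 1.14 (0.906 to 1.44) in other endothelial cells, 1.02 (0.739 to 1.41) in epicardial cells and 0.978 (0.854 to 1.12) in ventricular cells. Mesenchymal cells over 10000 UMIs held Hes1 at 360.5 (mutant) and 177 (control) CPM. The remaining mesenchymal cells held 270 (mutant; 252 to 288) and 244 (control; 221 to 269), with overlapping intervals. With equal weight per cell the mesenchymal levels were 293 (mutant) and 268 (control) CPM. The endocardial value rests on 53 mutant and 31 control cells, and a single control endocardial cell had 76633 UMIs. Without cells over 10000 UMIs the endocardial levels were 181 (mutant) and 147 (control) CPM. The difference was then larger in the other endothelial cells, at 208 (mutant; 176 to 244) and 127 (control; 98 to 163) CPM, which is past 1.5-fold. Over all endothelial cells the levels were 202 (mutant) and 131 (control) CPM without the deep cells, and 137 (mutant) and 141 (control) with each cell thinned to 1000 UMIs. The difference was thus not seen with thinning, but thinned counts were few and do not set a direction. In endocardial cells the immediate-early and heat-shock genes that answer to tissue digestion (9 genes such as Fos, Jun and Hspa1a, chosen after values were seen) moved the same way, summing to 2773 (mutant) and 1284 (control) CPM. In mesenchymal cells they summed to 2498 (mutant) and 2278 (control). In epicardial cells, where the Hes1 ratio was 1.02, they summed to 1004 (mutant) and 2126 (control). The part of digestion in the Hes1 difference was not tested.

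Set against the whole transcriptome, 19 of the 54 pairs of a member and a cell group had at least 10 UMIs and a mean of at least 10 CPM, and 6 of these passed 1.5-fold after 10 CPM was added to both levels. In endocardial cells Notch1, Hey1 and Hes1 were measured and all 3 were past 1.5-fold, higher in the mutant library. In this group 31.4% of all measured genes were past 1.5-fold in either direction and 22.0% were higher, so single genes of this small group often pass. In other endothelial cells Jag1 and Hey2 were higher of 5 measured, against 10.5% of all genes in either direction and 6.39% higher, and both rest on deep cells. Hey1 in endocardial cells and Jag1 in other endothelial cells were at 0 CPM in the control library. Any gene at 0 in 1 library that meets the mean of 10 CPM also passes 1.5-fold, so these calls were fixed by the minimum. In epicardial cells Jag1 was lower of 5 measured, against 7.32% of all genes in either direction and 5.43% lower. None of 4 measured in mesenchymal cells passed (2.0% of all genes in either direction), and none of 2 in ventricular cells (0.574% of all genes in either direction). No member was measured in atrial cells, where 0.985% of all genes passed in either direction. The ratio interval lay above 1 for 4 of the 5 higher pairs, the exception being Notch1 in endocardial cells, and the lower pair's interval held 1.

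**Figure D3:**
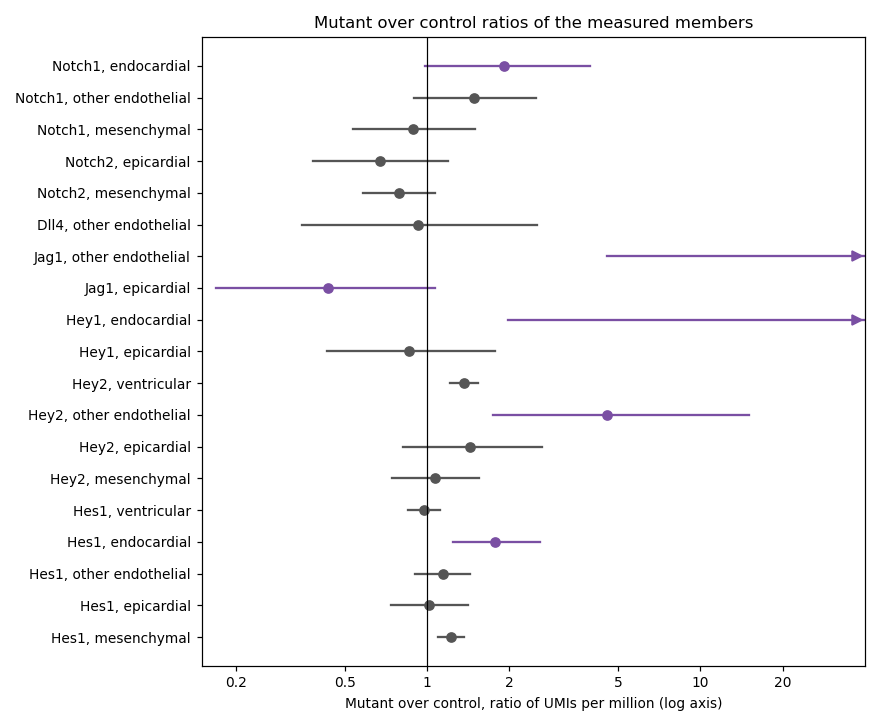
Ratio of CPM, mutant over control, for the 19 measured pairs of a gene and a cell group (log axis), with bars as exact 95% counting intervals, purple for ratios past 1.5-fold after 10 was added to both levels, and arrows where the control count was 0 and the interval has no upper end. In ventricular cells the interval of Hes1 runs from 0.854 to 1.12 and that of Hey2 from 1.22 to 1.54, and the purple pairs are Notch1, Hey1 and Hes1 in endocardial cells, Jag1 and Hey2 in other endothelial cells and Jag1 in epicardial cells.

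The rest of the pathway was described with a list of 44 genes, of which 10 to 23 were measured in a group. In ventricular cells 0 of 10 and in atrial cells 0 of 11 were past 1.5-fold, with medians of -0.0014 and 0.0092 on the log2 scale beside 0.036 and -0.032 over all genes. In mesenchymal and epicardial cells only Dlk1 was past it, 1 of 18 and 1 of 23 measured genes, beside 1.2% and 5.43% of all genes that were lower. Dlk1 codes for a Delta-like protein without the Delta domain that binds Notch, and stood at 416 (mutant) and 665 (control) CPM in epicardial cells and at 52.2 (mutant) and 101 (control) in mesenchymal cells. Rbpj, the DNA-binding partner of Notch, had 87.5 (mutant) and 100 (control) CPM in epicardial cells and 53.6 (mutant) and 56.6 (control) in mesenchymal cells.

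In other endothelial cells 2 of 21 measured genes of the list passed, beside 10.5% of all genes in either direction. Itch, a ubiquitin ligase of Notch, was higher at 49.8 (mutant) and 27.1 (control) CPM, where 6.39% of all genes were higher. Mfng, a fringe glycosyltransferase that tunes which ligands a receptor answers to, was lower at 21.5 (mutant) and 42.5 (control), where 4.15% of all genes were lower. In endocardial cells Mfng stood at 41.9 (mutant) and 0 (control), so its direction differed between the endothelial groups, and all 19 of its mutant endocardial UMIs came from cells over 10000 UMIs.

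In endocardial cells 9 of 22 measured genes of the list were higher in the mutant library and 2 lower (Numb and Fbxw7), beside 22.0% higher and 9.46% lower over all genes, with medians of 0.24 for the list and 0.09 for all genes on the log2 scale. Among the higher were the receptor Notch4, at 19.8 (mutant; 9 UMIs) and 9.30 (control; 3 UMIs) CPM, with a ratio interval of 0.532 to 12.25, and Nrarp, a Notch target that feeds back on the receptor, at 28.6 (mutant) and 12.4 (control). Without cells over 10000 UMIs the direction of Notch4 turned, at 10.1 (mutant; 2 UMIs) and 19.6 (control; 2 UMIs) CPM. The others were Hes6, Adam10, Aph1a, Poglut1, Mfng, Ctbp1 and Tle4. Of these, Mfng was at 0 CPM in the control library, so its call was fixed by the minimum, as for Hey1. Adam10 codes for the protease of the first cut of Notch, and had 92.6 (mutant) and 55.8 (control) CPM. In other endothelial cells Nrarp had 34.1 (mutant) and 24.5 (control) and Notch4 had 3.9 (mutant; 4 UMIs) and 10.3 (control; 8 UMIs) CPM. The other ligands were scarce: Dll1, Dll3 and Jag2 stayed at or under 5.16 CPM in all 6 groups of both libraries. Lfng, another fringe gene, was an epicardial one, at 10.3 (mutant) and 19.4 (control).

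**Figure D4:**
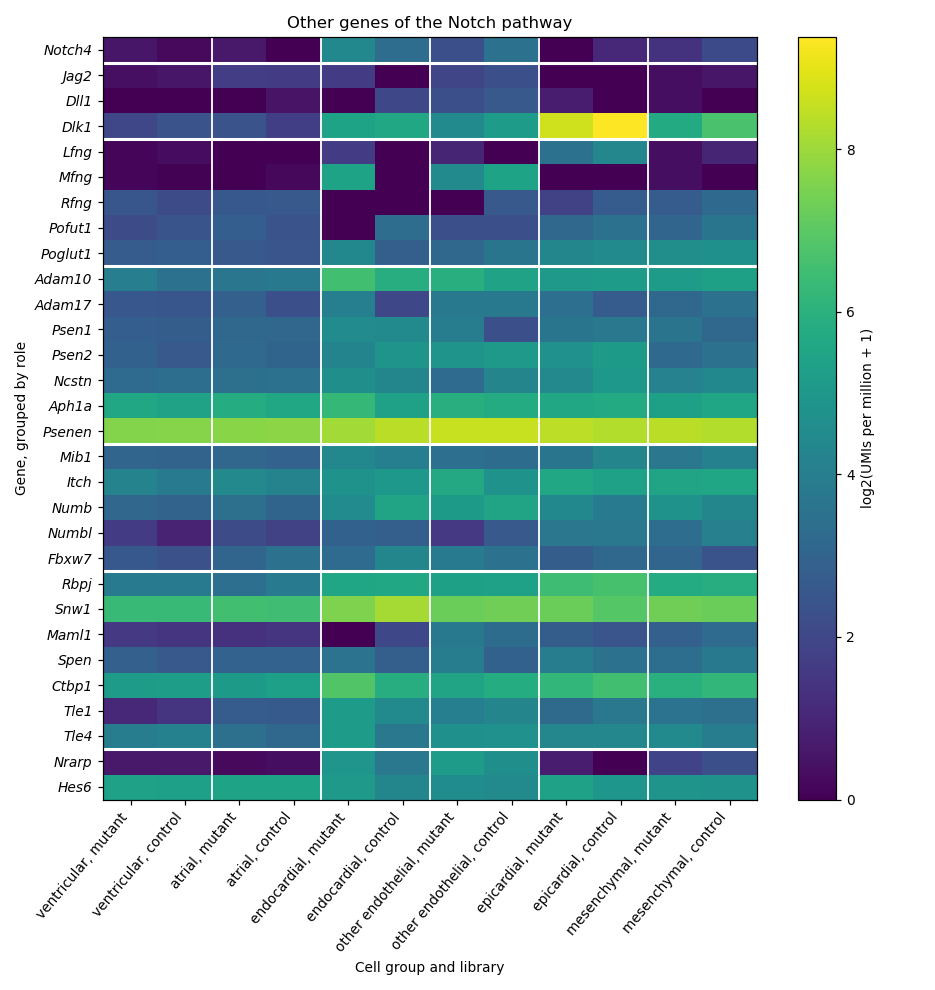
Levels of 30 other pathway genes as log2 of CPM plus 1 (colour), in the mutant and the control library of 6 cell groups side by side, with white lines between roles (receptor, ligands, glycosyltransferases, proteases, turnover, nuclear complex, targets). Dlk1 is brightest in epicardial cells (416 mutant, 665 control), Mfng is seen in endothelial columns except for control endocardial cells, and columns of the same group mostly look alike.

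Of 20 partner genes, which lie up- or downstream of Notch in heart tissue, 5 of 9 measured in other endothelial cells were higher in the mutant library: Nrg1, Tgfb2, Gja4, Tbx20 and Gata4. Of all measured genes in these cells, 6.39% were higher, and the partner list was chosen with earlier results of these data known. Nrg1 codes for neuregulin, an endocardial signal to trabecular muscle, and had 42.0 (mutant) and 3.87 (control) CPM. Of its 43 mutant UMIs, 31 lay in the same 2 cells that held most of Jag1. Those cells also held 27 of the 44 Tgfb2 UMIs and 12 of the 27 of Tbx20, a T-box transcription factor. Without cells over 10000 UMIs, Nrg1 stood at 13.9 (mutant) and 6.07 (control) and Tgfb2 at 11.1 (mutant) and 10.1 (control) CPM. Tbx20 then stood at 15.3 (mutant) and 8.10 (control) and Gata4 at 32.0 (mutant) and 26.3 (control) CPM. The difference was thus smaller for each of Nrg1, Tgfb2, Tbx20 and Gata4. Gja4, a gap junction gene of arterial endothelium, did not follow those cells, which held 0 of its UMIs: it had 224 (mutant) and 146 (control) CPM with deep cells and 309 (mutant) and 200 (control) without them.

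In endocardial cells Efnb2, the arterial ephrin that Notch raises, had 72.7 (mutant) and 24.8 (control) CPM and Sox17, an arterial transcription factor, 52.9 (mutant) and 18.6 (control). Tgfb2 and Gata4 were lower there, at 37.5 (mutant) and 89.9 (control) and at 30.9 (mutant) and 68.2 (control). Of 8 partners measured in these cells 2 were thus higher and 2 lower, beside 22.0% higher and 9.46% lower over all genes. Without cells over 10000 UMIs the direction of Tgfb2 turned, at 25.2 (mutant; 5 UMIs) and 19.6 (control; 2 UMIs) CPM, and Gata4 stood at 40.3 (mutant) and 68.6 (control). Efnb2 then rested on 9 of 33 mutant and 1 of 8 control UMIs, at 45.4 (mutant) and 9.81 (control) CPM. Sox17 rested on 6 of 24 mutant and 0 of 6 control UMIs, at 30.2 (mutant) and 0 (control). In all other endothelial cells Efnb2 had 35.1 (mutant) and 36.1 (control) and Sox17 101 (mutant) and 156 (control) CPM. In atrial cells Bmp2, a growth factor of the atrioventricular canal, had 20.5 (mutant) and 2.76 (control) CPM, the only one of 8 measured partners past 1.5-fold, where 0.519% of all genes were higher. In mesenchymal cells Snai1, a repressor of epithelial genes, had 57.6 (mutant) and 34.6 (control), where 0.798% of all genes were higher. In epicardial cells Efnb2 was higher at 21.2 (mutant) and 9.14 (control), where 1.89% of all genes were higher, and Bmp2 and Unc5b were lower, at 4.50 (mutant) and 18.3 (control) and at 14.8 (mutant) and 28.6 (control).

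Likeness of pattern was described over 12 values per gene, those of 6 cell groups in 2 libraries, by Pearson's r on the log2 scale after 10 was added. The values of a library share its depth and preparation, so r is a description. Among the members, Notch1 and Dll4 were most alike (0.87), followed by Notch2 and Notch3 (0.82) and Notch1 and Hes1 (0.77). Jag1 was like no other member, with r at most 0.30. Among 3686 other genes, those most like Notch1 were Calcrl (0.99), Ptprb and St6galnac3, and those most like Dll4 were Sgk1 (0.99), Gmfg and Fam167b. Txndc5 (0.97), Ubtd2 and Itga4 were most like Notch2, and Elof1 (0.91), Cux1 and Olfml3 most like Notch3. For Jag1 the closest were Fnta (0.83), Adamts5 and Lamp1. For Hey1 they were Tmed4 (0.96), Setd5 and Mark3, and for Hey2 Hddc2 (0.91), Commd3 and Rnaseh2c. Slc38a5 (0.96), Inhba and Meox1 were most like Heyl, and Dnajc8 (0.97), Tagln2 and Esf1 most like Hes1.

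Barcodes of the control library with under 100 UMIs, which hold free RNA, gave the level of each member outside cells. It was 32.0 CPM for Hes1, 19.9 for Hey2, 16.7 for Notch1, 10.3 each for Notch2 and Jag1, 9.61 for Notch3, 7.05 for Hey1, 2.56 for Heyl and 0 for Dll4. Control red cells held 1.32 CPM for Hey2 and 7.90 for Hes1, and control macrophages 0 for Hey2 and 47.1 for Hes1. The control mesenchymal and epicardial levels of Hey2, 23.0 and 20.6 CPM, were close to its level outside cells. Other control levels lay under the gene's level outside cells. Examples are Notch1 (13.0) and Notch3 (8.64) in mesenchymal cells, Jag1 in atrial (7.74) and mesenchymal (6.72) cells, and Hey1 in atrial cells (5.39). Others lay above it, such as Notch1 in endocardial cells (40.3) and Hes1 in mesenchymal cells (232). Hbb-y, a globin gene of red cells, stood at 37800 CPM outside cells, against 259 in control mesenchymal and 227 in control epicardial cells. Notch1 stood at 0.297 CPM in control ventricular cells, against 16.7 outside cells. The part of free RNA in the levels was not tested. The mutant count table was deposited with cell barcodes only, so no such level could be read for it here.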

How the data were processed

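Hearts at E12.5 were digested with TrypLE and run on a 10x Genomics Chromium v2 kit, per the labels' protocols. The authors used Cell Ranger and Seurat, per the submitters' processing notes, and Cell Ranger 3.0.2 is named per the file headers. The deposited files hold raw UMI counts per gene and barcode, with no normalization; the mutant file listed 7181 barcodes (filtered) and the control file 6794880 barcodes (unfiltered), so the cell minimums given above were applied to both. The annotation and genome build were not given in the sources used here: 99.6% of gene IDs matched the GRCm38 annotation used for positions.

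Counts were summed per gated group and library and scaled to counts per 1000000 UMIs (CPM). Intervals are exact: Poisson for levels, Clopper-Pearson for shares and conditional binomial for ratios. Only the ratio interval was checked, on simulated independent Poisson counts. That check does not cover UMIs gathered in a few cells. Ratios past 1.5-fold were counted after adding 10 CPM. Gates per 10000 UMIs were set with these data at hand: 100 for cardiomyocyte markers, 15 for endothelial and mesenchymal markers and 10 for epicardial markers. Cells past the gates of more than 1 lineage were left out, except that epicardial cells were kept when they also passed the mesenchymal gate. In all, 3559 (76.7%) of mutant and 3260 (79.5%) of control cells fell in the 6 groups. Nppa-high means at least 10 Nppa UMIs per 10000, Nppa-low under 1. Scrublet (scanpy 1.11.5) marked 0 cells as doublets at its automatic threshold, so it did not work; the top 6% of scores were left out only as an alternative. Python 3.11.15, numpy 2.4.6 and scipy 1.17.1 were used. The members and lists were chosen with earlier results of these data known. Named genes were all members, list genes past 1.5-fold, ligands, receptors, fringes and Nrarp with at least 10 CPM, and the 3 genes most like each member.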

Additional observations from a re-analysis of the deposited data

How the results depend on the processing

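The count of member ratios past 1.5-fold, 6 with the gates as given, was 3 with gate thresholds doubled, 2 with equal weight per cell, 0 with each cell thinned to 1000 UMIs and 2 without non-muscle cells over 10000 UMIs. It lay between 4 and 6 with lower cell minimums, without the top Scrublet scores, with clusters, with other totals and without the cell richest in each gene. The pathway list's count, 15, was 9 with clusters in place of gates and 9 without non-muscle cells over 10000 UMIs. The count of gene, group and library triples with at least 1% of thinned cells holding a UMI, 30 of 108, was 74 at full depth. Jag1 in epicardial cells, at -0.60 on the log2 scale, reversed to 0.29 with clusters and to 0.18 with equal weight. When thinned it stood at 0.068, from too few UMIs to give a direction. The cause of these shifts was not tested. Of the single ratios under planned settings, 157 of 175 stayed within their counting interval. The settings without the richest cell and without cells over 10000 UMIs were chosen after seeing the data. No paired analysis was possible because each genotype had 1 library, and no library could be left out. The endocardial group had the fewest cells of the 6 groups, with 53 mutant and 31 control cells.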

Other observations

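The 8 mutant endothelial cells with a Jag1 UMI held 26 Hes1 UMIs, and all 26 came from 1 of them. The 2 cells richest in Jag1 had 46946 UMIs together and 0 of Hes1, while mutant endothelial cells without a Jag1 UMI held Hes1 at 200 CPM (177 to 225), in 117 of 262 cells. The 2 control endothelial cells with a Jag1 UMI held Hes1 at 62.5 CPM (20.3 to 146), and control cells without one at 162 (138 to 189). In mesenchymal cells Hes1 stood at 368 (mutant; 284 to 468) and 161 (control; 99.9 to 247) CPM in cells with a Jag1 UMI, and at 279 (mutant; 262 to 297) and 237 (control; 216 to 260) in cells without one. Mesenchymal cells with a Jag1 UMI were deeper, with median UMIs of 9027 (mutant) and 6784 (control). Those without one had medians of 2187 (mutant) and 1817 (control). All mesenchymal cells over 10000 UMIs, split by depth alone, held Hes1 at 360.5 (mutant) and 177 (control) CPM. Endothelial cells with a Jag1 UMI were deeper too. The part of depth in these splits was not tested. These splits were chosen after the values were seen, and no difference was tested.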
